A study of Mus musculus with 69 samples.

Results

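Bmp4, Bmpr1a, Smad1, Smad5, Smad6, Id1, Id2 and Id3 carry the bone morphogenetic protein (BMP) signal from its ligand to its best known targets, and they were followed here in mouse embryonic stem cells (ESCs) whose histone H3.3 cannot be acetylated at lysine 27. They were chosen by name, and all 8 were found among the 16263 genes of the count table. The wild-type (WT) line was J1, derived from the inner cell mass of a 129S4/SvJae blastocyst. Both mutant lines, H3.3K27R #18 (Mut18) and H3.3K27R #43 (Mut43), were made from J1 by CRISPR-Cas9 editing of both genes for H3.3, so that lysine 27 is replaced by arginine, and each is a single clone. Per the study's methods all lines were kept on feeder cells and passaged without them before harvest. Each line had 2 mRNA-seq libraries and 2 libraries of ATAC-seq, which maps open chromatin by transposase insertion.

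BMP ligands such as BMP4 bind a pair of type II and type I receptors, of which BMPR1A is a type I receptor, and the type I receptor phosphorylates SMAD1 and SMAD5. These then join SMAD4, enter the nucleus and bind DNA, while SMAD6 blocks the same step as a feedback inhibitor. In mouse ESCs the Id genes are the classical targets: their products hold basic helix-loop-helix (bHLH) factors away from DNA, and BMP with leukaemia inhibitory factor keeps the cells from turning neural.

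Responsive elements of Id genes are known to pair a GC-rich box, bound by SMAD1 or SMAD5, with a GTCT box, bound by SMAD4. GGCGCC followed, after any 5 bases, by GTCT was therefore searched for on both strands in the 89596 regions obtained by merging the ATAC-seq peaks of all 6 libraries. It stood in 85 of them, or 0.095%. Of the 86 regions within 50 kb of a start site of the 8 genes, 5 held it, and these lay at Id1, Id2 and Id3. The 3 Id genes had 41 such regions, 12.2% of them with the motif, and the other 5 genes had 45, none with it. The motif was modelled on elements known from Id genes, so finding it at Id genes and not at the other 5 is no independent result. It was also chosen after earlier results of these data were known. A match is a description of the letters and not evidence of binding. The 5 sites are shown on mm10 (GRCm38) with 25 bases on either side, each read in the direction of the motif. They are all the matches found in the regions near the 8 genes. Capitals mark the GC-rich box and the GTCT box.
Id1, chr2:152739446-152739510, plus strand: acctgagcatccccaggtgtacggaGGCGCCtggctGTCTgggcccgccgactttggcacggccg
Id2, upstream, chr12:25098829-25098893, minus strand: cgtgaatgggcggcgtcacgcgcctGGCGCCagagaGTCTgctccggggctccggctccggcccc
Id2, downstream, chr12:25093019-25093083, minus strand: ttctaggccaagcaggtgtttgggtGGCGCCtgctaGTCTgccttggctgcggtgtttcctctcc
Id3, upstream, chr4:136140515-136140579, plus strand: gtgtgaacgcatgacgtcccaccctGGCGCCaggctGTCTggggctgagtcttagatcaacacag
Id3, downstream, chr4:136147956-136148020, plus strand: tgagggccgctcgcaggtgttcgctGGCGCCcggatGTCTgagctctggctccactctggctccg

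Measured from the nearest annotated start site, the centre of the Id1 region lay at 3.2 kb. Those of Id2 lay at -1.8 and 3.3 kb, and those of Id3 at -3.0 and 3.0 kb. Id2 and Id3 have 3 annotated start sites each, and the upstream and downstream distances of each gene refer to different ones. All 5 regions were intergenic in the GENCODE annotation, and in all 5 the motif was followed by a G. The downstream sites of Id1, Id2 and Id3 also shared CAGGTGT, which contains an E-box, the sequence type bound by bHLH factors, within the 25 bases before the motif. Across all regions the motif occurred at 87 sites, and 3 of these had CAGGTGT in that stretch, which are the downstream sites of the 3 Id genes. This second string was noticed in the printed sequences, so the 3 downstream sites were bound to be among those counted. It was not tested.

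The 6 mRNA-seq libraries held between 14992756 and 15143998 counts, so depth was nearly equal. The mutation itself cannot be read from gene counts. The counts of H3f3a, one of the edited genes, were between 8436 and 9560 normalized counts in the mutants and 10510 and 10937 in WT, and H3f3b was between 11655 and 13556 in the mutants and 12378 and 12398 in WT. ESC identity was clear in every library, with the 10 ESC markers summing to 58479 and 60954 normalized counts in WT and 65861 to 69464 in the mutants. Of the 10, 8 were called higher in the mutants, where 23.5% of all tested genes were. The other 2, Pou5f1 and Utf1, were called lower, at -0.27 and -0.19 on the log2 scale. All 14 feeder fibroblast markers were also detected: their sum was 10884 and 9418 for the WT libraries, 7539 and 6867 for Mut18 and 5422 and 5090 for Mut43. Of the 13 tested, 11 were lower in the mutants and none higher, where 24.5% of all tested genes were called lower. Only Lum was at 0 in some libraries, and Col3a1, a fibroblast collagen, was at 843 and 257 in WT and between 98.4 and 149 in the mutants. These marker levels moved with genotype in the same direction as several genes below, and their part in those results was not tested. In such bulk samples fewer cells of a type and less RNA per cell cannot be told apart.

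Levels of the 8 genes were first compared with one another in WT, per exon length, as counts per kilobase of exon scaled to library size (RPKM). Id1 was highest (47.7 and 52.5), followed by Id2 (30.7 and 31.5), Bmpr1a (22.7 and 21.0) and Id3 (14.9 and 14.6). Smad5 (7.41 and 7.38) lay just above Bmp4 (7.03 and 6.37), with Smad1 (2.91 and 2.68) and Smad6 (0.991 and 1.04) at the bottom. No neighbouring pair in this order overlapped between the 2 WT libraries, although Smad5 and Bmp4 came close. The targets were thus present at higher levels than the ligand and the Smads. In the mutants the order changed in the middle: Bmpr1a (18.9 to 20.3) passed Id2 (13.1 to 17.2), and Bmp4 (11.5 to 13.5) overlapped Id2 and Id3 (11.8 to 12.3).

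**Figure D1:**
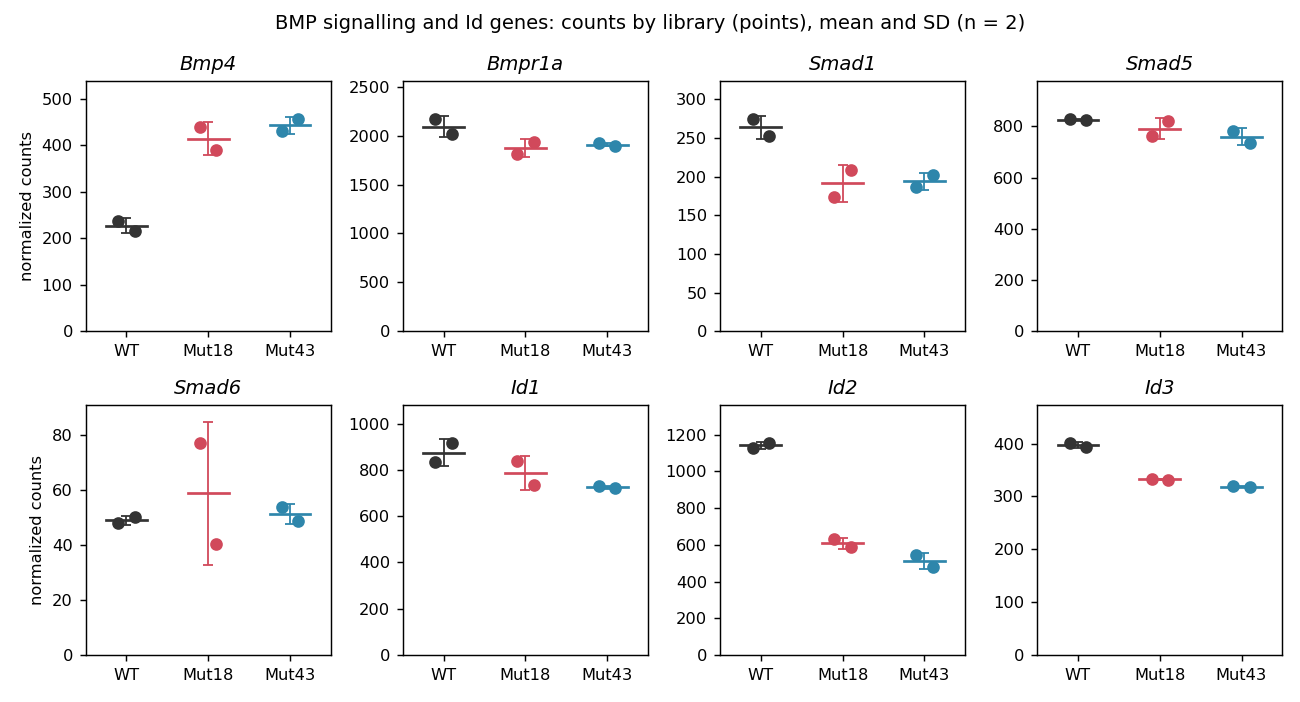
Normalized counts (vertical axes, from 0) of the 8 genes in each mRNA-seq library of WT, Mut18 and Mut43; points are libraries, the horizontal bar is the mean of 2 and the error bar its SD. Bmp4 lies higher in all 4 mutant libraries and Id2 lower, at 480 to 631 against 1128 and 1156 in WT.

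Mutants were compared with WT by a model fitted across all 14061 genes that passed a filter on low counts, which all 8 passed. Of the 8 genes, 6 passed an adjusted p under 0.05, 1 higher and 5 lower. The share of all tested genes called was 48.0%, with 23.5% higher and 24.5% lower, so a call alone sets none of these genes apart. The largest changes among the 8 were those of Bmp4, which rose 1.89-fold, and Id2, which was 2.04-fold lower, whereas the median absolute log2 fold change over all tested genes was 0.23. Larger absolute changes than that of Bmp4 were seen in 10.7% of genes, and larger than that of Id2 in 8.75%. With a change of more than 2-fold also required, Id2 alone was called, against 8.93% of all tested genes.

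**Figure D2:**
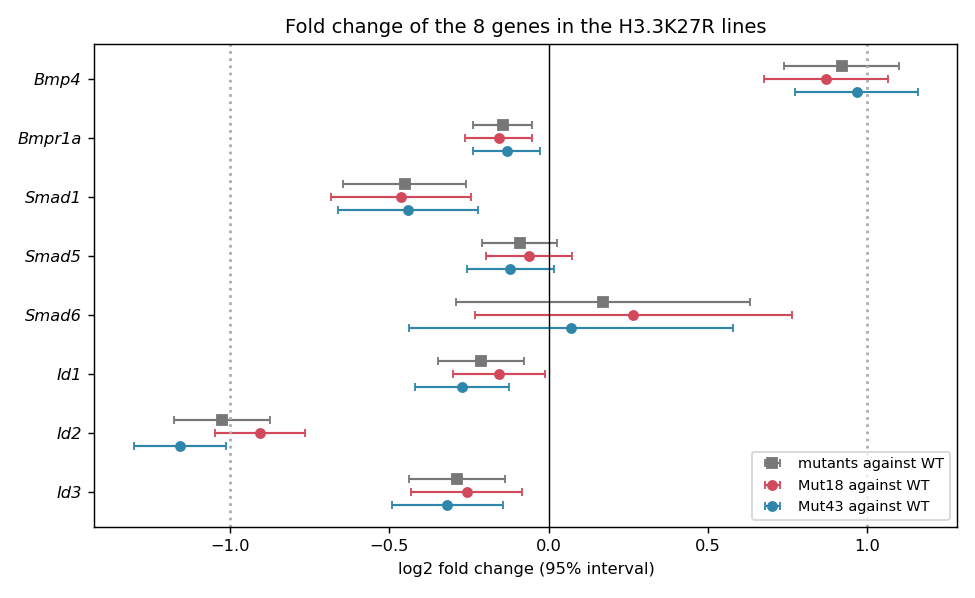
Log2 fold change (horizontal axis) of each of the 8 genes for both mutants together, Mut18 and Mut43 against WT; bars are 95% intervals and dotted lines mark a 2-fold change. Bmp4 (0.92 for both mutants together) and Id2 (-1.03) lie near the dotted lines, and the other 6 genes lie closer to 0.

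Bmp4 encodes the ligand and lies at chr14:46383520-46390669 on the minus strand. The WT libraries held 238 and 216 normalized counts of it, those of Mut18 440 and 390, and those of Mut43 430 and 457. All mutant libraries lay above both WT libraries, a pattern found in 29.4% of tested genes. The log2 fold change was 0.92 (SE 0.086, 95% interval 0.74 to 1.10, adjusted p = 2.64e-08, edgeR), with 0.87 in Mut18 and 0.97 in Mut43. Both clones are compared with the same WT libraries, so these are not independent. The annotation places Gm15217 and the antisense Gm15222 over Bmp4 on the other strand, and since the strand setting of the counting is not given in the sources used here, their reads cannot be told apart from those of Bmp4.

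The remaining ligands went the other way where they changed. Of 13 other BMP ligands, 9 were in the table and 6 were tested: 3 fell, none rose, and the median log2 fold change was -0.62 against -0.004 over all tested genes. For this list and those below, the shares of all tested genes to set beside the counts are 24.5% lower and 23.5% higher. Gdf6 fell by 2.35 on the log2 scale (adjusted p = 0.000248, edgeR), from 13.7 and 15.7 normalized counts in WT to between 2.03 and 3.05. The log2 fold change was -0.90 for Bmp8a and -0.67 for Bmp2. All 3 were scarce, with Bmp2 at 35.1 and 32.3 normalized counts in WT, and the count of 3 went down to 1 without WT replicate 1. Bmp4 was the one ligand of those tested that was called higher.

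Bmpr1a encodes the type I receptor and spans chr14:34410734-34503341 on the minus strand. Normalized counts were 2169 and 2014 for WT, 1810 and 1940 for Mut18 and 1920 and 1897 for Mut43. The mutants lay below WT without overlap, as they did in 30.4% of tested genes. The shift was small, at -0.14 on the log2 scale (SE 0.045, adjusted p = 0.0115, edgeR). Without WT replicate 1 it was -0.088 and no longer passed the test (adjusted p = 0.262). Of 10 other receptors and co-receptors, all of them tested, 5 fell and none rose, with a median of -0.35. Acvrl1, a type I receptor best known from endothelium, fell by 0.92 from 27.3 and 26.5 to between 12.1 and 16.3 normalized counts. Rgmb, a co-receptor for BMP ligands, fell by 0.86, from 111 and 112 to between 45.7 and 72.8. The count of 5 was 2 without WT replicate 1.

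Smad1 and Smad5 encode the receptor-regulated Smads. Smad1 (chr8:79338395-79399518, minus strand) reached 274 and 253 normalized counts with WT, 174 and 208 with Mut18 and 186 and 202 with Mut43, and the groups did not overlap. It fell by 0.45 on the log2 scale (SE 0.093, adjusted p = 0.000436, edgeR), a level 0.731 times that of WT. Smad5 (chr13:56703010-56742377, plus strand), the more abundant of the pair, reached 828 and 825 with WT, 763 and 820 with Mut18 and 784 and 737 with Mut43. These libraries did not overlap either, as was the case for mutants below WT in 30.4% of tested genes, yet the log2 fold change of -0.091 did not pass the test (95% interval -0.21 to 0.03, adjusted p = 0.194, edgeR). Per exon length the ratio of Smad5 to Smad1 was 2.55 and 2.75 in WT and between 3.08 and 3.70 in the mutants, without overlap. How often ratios of other gene pairs separate in this way was not counted.

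Smad6 (chr9:63953076-64022059, minus strand), the inhibitory Smad, was the scarcest of the 8 genes and the most variable. Its normalized counts were 47.8 and 50.0 for WT, 77.1 and 40.5 for Mut18 and 53.9 and 48.7 for Mut43. Mut18 replicate 1 was the highest of all libraries and Mut18 replicate 2 the lowest, so the groups overlapped. The log2 fold change of 0.17 had a 95% interval of -0.29 to 0.63 (adjusted p = 0.548, edgeR) and was -0.036 without Mut18 replicate 1. That interval runs from 0.82 to 1.55 times the WT level, and changes within it are not excluded.

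The rest of the intracellular machinery mostly changed by small amounts. Among 14 regulators and cofactors, all tested, 3 rose and 7 fell, with a median of -0.18. Hivep2, a zinc finger cofactor of Smads, fell by 1.74 on the log2 scale (adjusted p = 4.19e-09, edgeR), from 187 and 164 normalized counts in WT to 56.1 and 61.7 in Mut18 and 44.8 and 47.7 in Mut43. It was the 1 gene of this list past a 2-fold change. Tob1, an antiproliferative protein that binds Smads, rose by 0.69, from 514 and 440 to between 730 and 805. It lies on chromosome 11, whose 1182 tested genes had a median log2 fold change of 0.39 and of which 67.0% were called higher, and none of the 8 genes lies there.

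Of 16 extracellular inhibitors and modulators, 13 were in the table and 11 were tested: 8 fell, none rose, and the median was -0.78. Fst, whose product follistatin traps activins and some BMPs, had 256 and 231 normalized counts in WT and between 73.1 and 94.1 in the mutants, a change of -1.60 (adjusted p = 6.79e-10, edgeR). Grem1, a secreted antagonist of BMP2 and BMP4, went from 37.1 and 37.2 to 22 and 14.2 in Mut18 and 5.09 and 8.12 in Mut43. The log2 fold change was -1.29 for Bmper and -1.16 for Tll1, a protease that cleaves the antagonist chordin. Nog and Chrd, the classical antagonists, did not pass the test, at -0.88 and 0.36. Several of these genes are also made by fibroblasts, and the feeder marker levels given above fell alongside them. With DESeq2, or without WT replicate 1, 4 of the list were called.

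**Figure D3:**
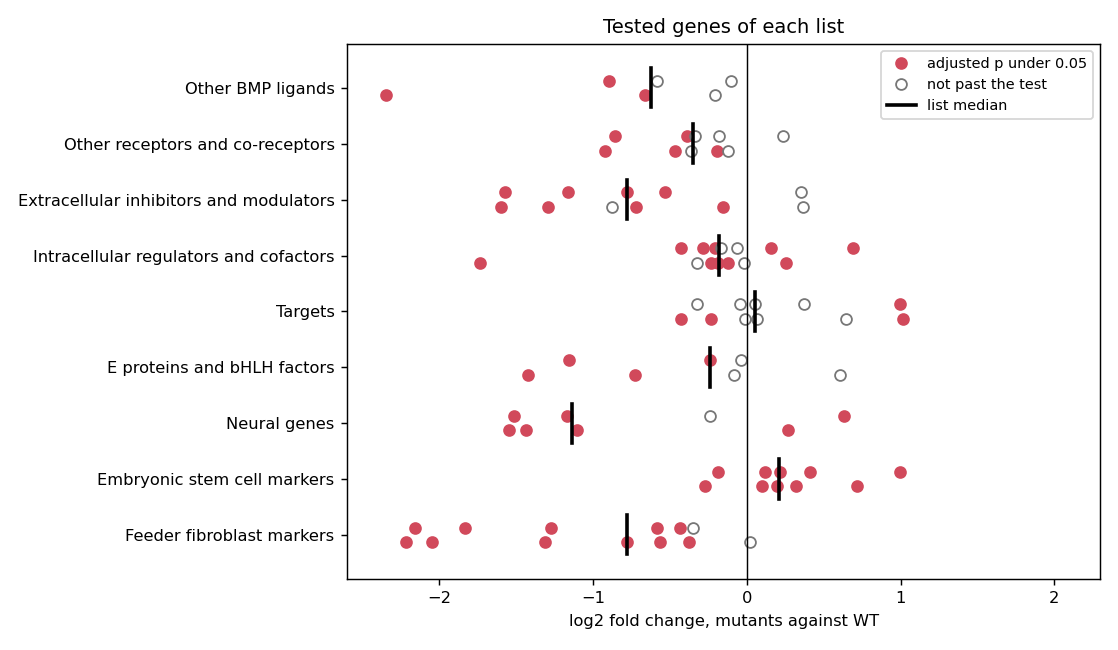
Log2 fold change of mutants against WT (horizontal axis) for every tested gene of each list (rows); filled points passed an adjusted p of 0.05, open points did not, and the black bar is the list's median. The neural list has the lowest median (-1.14), and that of the BMP targets lies near 0 (0.05).

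Id2 was the member with the strongest decrease. It lies at chr12:25093799-25097140 on the minus strand and had 1128 and 1156 normalized counts for WT, 631 and 587 for Mut18, and 543 and 480 for Mut43. The mutant libraries were all far below WT, and all mutant libraries lay below both WT ones in 30.4% of tested genes. The log2 fold change was -1.03 (SE 0.072, 95% interval -1.18 to -0.88, adjusted p = 4.42e-10, edgeR). Against WT it was -0.91 in Mut18 and -1.16 in Mut43. Between the clones, Mut43 was lower than Mut18 by 0.25 on the log2 scale (95% interval -0.41 to -0.09), with an unadjusted p of 0.00281 that gave an adjusted p of 0.220 in the edgeR fit.

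Id3 (chr4:136143497-136145755, plus strand) fell with little scatter, from 401 and 393 normalized counts for WT to 332 and 332 for Mut18 and 320 and 318 for Mut43. Its log2 fold change was -0.29 (SE 0.072, 95% interval -0.44 to -0.14, adjusted p = 0.00240, edgeR). Id1 (chr2:152736251-152737410, plus strand) was the most abundant Id gene per exon length. Its normalized counts stood at 834 and 917 for WT, 838 and 733 for Mut18 and 730 and 720 for Mut43. Mut18 replicate 1 overlapped WT and the other 3 mutant libraries lay below. Its change of -0.21 (95% interval -0.35 to -0.08) passed at an adjusted p of 0.0103 in edgeR, but without WT replicate 2 it was -0.14 at an adjusted p of 0.179. The 95% interval of Id2 did not meet those of Id1 and Id3.

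Id4, which is not one of the 8 genes, moved in the opposite direction. It had 44.9 and 38.2 normalized counts in WT and between 80.1 and 89.3 in the mutants, a log2 fold change of 1.02 (adjusted p = 4.66e-05, edgeR). Per exon length the 4 Id genes summed to an RPKM of 94.0 and 99.2 in the WT libraries, 78.8 and 71.7 in those of Mut18, and 69.8 and 67.6 in those of Mut43. Id2 made up 32.6% and 31.7% of that sum in WT and 19.3% to 22.3% in the mutants. The share of Id1 went from 50.7% and 52.9% to between 58.5% and 61.0%, although its own level did not rise, and Id3 stayed between 14.7% and 17.4%. Id4 remained minor, at 0.82% and 0.66% in WT and 1.75% to 2.28% in the mutants.

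**Figure D4:**
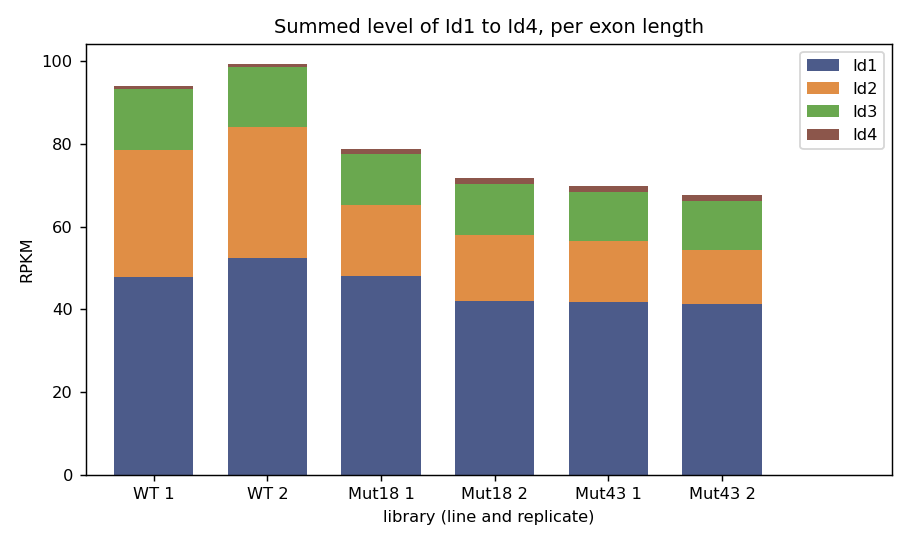
Stacked level of Id1, Id2, Id3 and Id4 per exon length (vertical axis, RPKM) in each of the 6 mRNA-seq libraries. The summed height is 94.0 and 99.2 in WT and 67.6 to 78.8 in the mutants, and the Id2 layer shrinks most.

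The other targets moved in both directions. Of 13 listed targets beside the members, all in the table, 11 were tested: 2 rose, 2 fell and the median was 0.05. Id4 rose as given, and Tbx3, a transcription factor of the ESC network, rose by 0.99 on the log2 scale, from 374 and 364 normalized counts in WT to 622 and 653 in Mut18 and 818 and 844 in Mut43. The pair that fell was Bambi, a decoy receptor, with a log2 fold change of -0.43 (adjusted p = 0.00712, edgeR), and Smad7, an inhibitory Smad, with -0.23 (adjusted p = 0.00699, edgeR). Over the 5 pathway lists together, each gene counted once, 56 genes were in the table and 49 were tested. Of these, 5 rose and 23 fell, 57.1% in all against 48.0% of all tested genes, with a median log2 fold change of -0.21.

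The partners and the downstream side of Id proteins were read next. Among the E proteins and other bHLH factors, 7 of the 9 genes in the table were tested. Of these, 4 fell and none rose, with a median of -0.24, where 24.5% of all tested genes were called lower. Tal1, a blood and endothelial factor, fell by 1.42 on the log2 scale. Neurod1, a neural one, changed by -1.16, from 238 and 229 normalized counts to between 85.2 and 121. The share of all tested genes called lower past 2-fold was 5.65%. Of 9 neural genes, 8 were tested and 5 fell past 2-fold. Their log2 fold changes were -1.55 for Sox3, -1.51 for Nes, a filament gene of neural progenitors that fibroblasts also make, -1.44 for Zic1, -1.17 for Map2 and -1.10 for Sox1. Tubb3 and Pax6 rose, by 0.63 and 0.27. Thus in these mutants lower Id2 and Id3 counts stood beside lower counts of most of the neural genes listed. Id1 was also lower, but Mut18 replicate 1 overlapped WT. The summed feeder markers were lower in the same libraries, and a link between these changes was not tested.

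Comparing the clones with each other, none of the 8 genes passed the adjusted test in edgeR or in DESeq2, where 4 had no adjusted p, and 0.327% of all genes did in edgeR. At an unadjusted p under 0.05, which 8.52% of genes met in edgeR, there was 1, Id2, by either tool. Against WT, 5 of the 8 genes were called in Mut18, where 41.3% of all tested genes were, and 6 in Mut43, where 46.8% were. With DESeq2 these counts were 3 and 4, and the share of all genes called by DESeq2 was not counted. In edgeR the gene that made the difference between 5 and 6 was Id1. It changed by -0.16 in Mut18 (adjusted p = 0.0802, edgeR) and -0.27 in Mut43 (adjusted p = 0.00279, edgeR). Between the clones it differed by -0.12 (95% interval -0.27 to 0.03).

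Open chromatin at the start sites of the 8 genes was present in every line. A peak lay within 1000 bp of a start site for all 8 in all 6 ATAC-seq libraries, as was true of 86.0% to 89.9% of 16096 genes with a place in the annotation. Peaks were deposited per library, between 63588 and 78536 each, and their strength is given here as the percentile of the -log10 q among all peaks of the same library. At Id2, whose RNA fell, the promoter peak stood at the percentiles 61.8 and 63.8 in WT and 70.6 to 80.9 in the mutants. Bmp4, whose RNA rose, had 2 promoter peaks in each library. The stronger, at an internal start site, stood at 47.3 and 43.9 in WT and 12.2 to 42.4 in the mutants, and the weaker, at the 5′ end of the gene, at 19.9 and 4.2 in WT and 5.1 to 15 in the mutants, where the groups overlapped. These percentiles were not tested. At Id3 the percentiles overlapped, with 71.8 and 46.6 in WT and 57.4 to 68.7 in the mutants. Those of the strongest promoter peak also overlapped at Bmpr1a, Smad5, Smad6 and Id1. At Smad1, whose RNA fell, it stood at 89.0 and 88.5 in WT and 79.0 to 85.1 in the mutants, at differing start sites. The share of all promoter peaks whose groups separate was not counted.

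Within 50 kb of the 8 genes, 57 of 86 regions (66.3%) had a peak in all 6 libraries, compared with 54.7% of all regions. Regions seen in both WT and no mutant library numbered 2, where 3.25% of all regions were of this kind. This count was 5 without WT replicate 1 and 11 without WT replicate 2. None was seen in all 4 mutant and no WT library, where 0.733% were. The first WT-only region lay in an intron of Bmpr1a at chr14:34453818-34453977, was weak in WT (percentiles 4.8 and 0.8) and was no longer WT-only when the same number of peaks was taken from each library. The second lay 3.0 kb from the nearest Id3 start site, and it is the downstream Id3 region with the motif, chr4:136147830-136148099. It stood at the percentiles 20 and 38 in WT, and the nearest peak of a mutant library was 669 to 721 bp away. It stayed WT-only with equal peak numbers, a setting that kept 63588 of the 78536 peaks of WT replicate 1, where it stood at the percentile 20. It could not lose that class by leaving out a library or by another window, so those alternatives say nothing about it. It is shown whole, 270 bases on the plus strand with a GC content of 79.3%, because it is the one motif region of the 5 without a peak in any mutant library, and capitals mark the motif as before.
Id3, downstream region: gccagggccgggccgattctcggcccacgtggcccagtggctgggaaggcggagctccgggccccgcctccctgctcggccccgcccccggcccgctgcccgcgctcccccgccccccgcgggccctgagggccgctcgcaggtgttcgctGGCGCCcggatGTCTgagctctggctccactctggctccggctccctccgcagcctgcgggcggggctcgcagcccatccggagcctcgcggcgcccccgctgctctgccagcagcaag

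The other motif regions kept their peaks to different degrees. The upstream Id3 region, 3.0 kb before the start site, was strong in all libraries, at the percentiles 73.5 and 78.4 in WT and 77.7 to 83.7 in the mutants. The upstream Id2 region was likewise present throughout, at 46.5 and 51.6 in WT and 43.3 to 63.2 in the mutants. The downstream Id2 region had a peak in all libraries as well, at 52.4 and 44.3 in WT and at 25.5 and 58.9 in Mut18 and 25.7 and 26.1 in Mut43. The downstream Id1 region had a peak in both WT libraries, at 36.6 and 25, and in 1 mutant library, Mut18 replicate 2, at 14.3. The 3 downstream sites, those with CAGGTGT, were thus the ones at which mutant peaks were missing or mostly weaker, with Mut18 replicate 2 as the exception at Id2, and the upstream sites were not. This contrast between upstream and downstream sites was read from the peaks and was not tested. Partial absence was common: 37042 of all 89596 regions had peaks in some libraries only, without being WT-only or mutant-only, as at Id1. In WT the downstream Id1 and Id3 regions (36.6 and 25, 20 and 38) already lay below the upstream ones (46.5 to 78.4). The percentiles of the 2 Id2 regions overlapped in WT. Across the genome, regions with the motif were not lost more often: 64 of the 85 (75.3%) had a peak in all libraries and 3 (3.53%) were WT-only, against 54.6% and 3.25% of the regions without it.

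**Figure D5:**
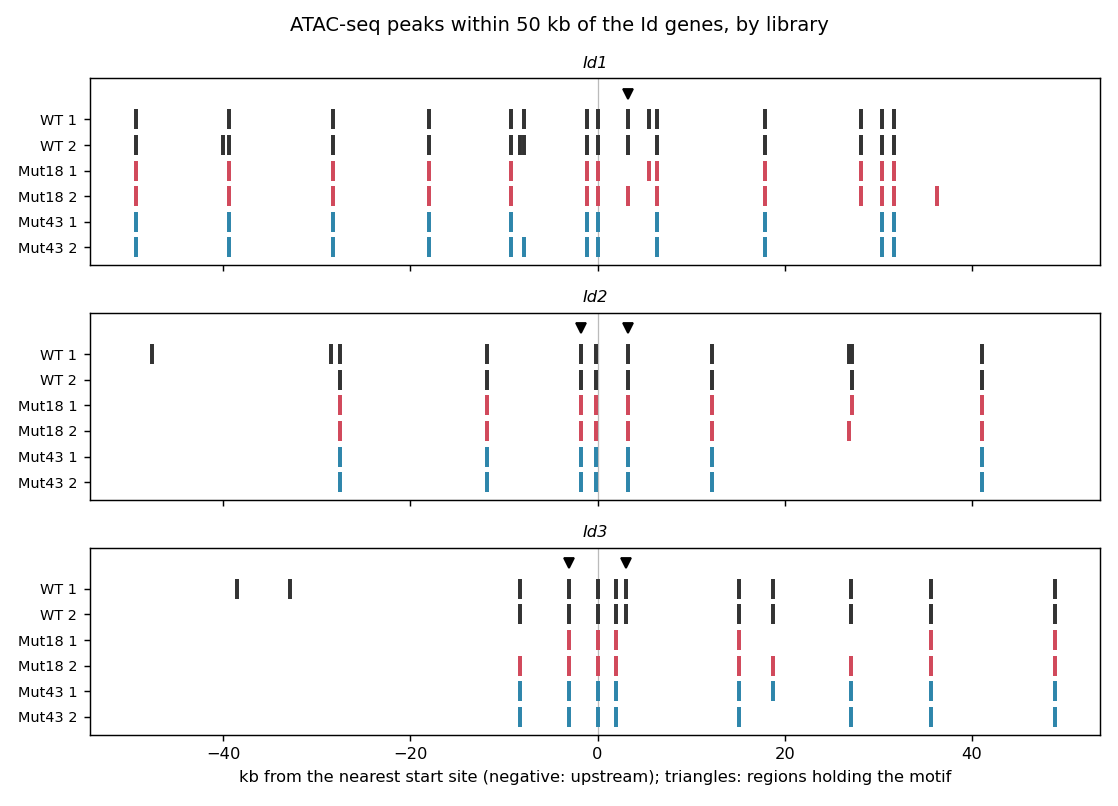
Peaks within 50 kb of Id1, Id2 and Id3 (horizontal axis, kb from the nearest start site, negative upstream) in each of the 6 ATAC-seq libraries (rows); each tick is a peak region present in that library, and triangles mark the 5 regions that hold the motif. The tick under the right-hand triangle of Id3 is seen in both WT libraries and in no mutant library.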

How the data were processed

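Gene counts were deposited by the authors as whole-number counts for 6 mRNA-seq libraries (2 per line). Per the labels, the submitters' processing notes name the build mm10, Bowtie2 2.3.4.2, STAR, SAMtools, DESeq2, deepTools 3.3.0 and, for ATAC-seq, MACS2; the counting program, annotation and strand setting are not given in the sources used here. ATAC-seq peaks were deposited per library with fold enrichment, -log10 p and -log10 q as the authors' peak caller wrote them, and every listed -log10 q was above 6.

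Counts were tested with edgeR 4.0.16 (R 4.3.3; TMM; filterByExpr with a minimum count of 10; quasi-likelihood test), WT (n = 2) against both mutants (n = 4), and in a 3-group fit for each clone. P-values were adjusted by Benjamini-Hochberg over 14061 of 16263 genes. Normalized counts are counts scaled by TMM library size. DESeq2 1.42.0 was an alternative. Replicates are stated to be independent biological replicates, and the p-values measure the spread between libraries. For both mutants against WT, this spread pools the libraries of both clones. With a single WT line and each mutant line a single clone, the mutation and the history of a line cannot be told apart. No 2 libraries were identical. Peaks of all libraries were merged at 1 bp of overlap. Gene names were placed on GENCODE vM21 by symbol (15618) or RefSeq synonym (478), and 165 had no place. Sequence was read from GRCm38. Scripts were tested on simulated data.

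The 8 genes and the lists were chosen with earlier results of these data known. Named beside them were, per list, the genes past adjusted p 0.05 and 2-fold (at most 6), otherwise the 2 with the largest change. Bmp8a, Bmp2, Tob1, Tbx3, Bambi, Smad7, Nog, Chrd, Tubb3, Pax6, Pou5f1, Utf1, Col3a1, H3f3a, H3f3b and the motif strings were chosen after values were seen.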

Additional observations from a re-analysis of the deposited data

Results flagged for a closer look

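A single value stood apart from its group. In the 4 mutant libraries, Id1 had 838 normalized counts in Mut18 replicate 1 and 733, 730 and 720 in the others, and the gap took 0.891 of the range, above Dixon's 95% limit for 4 samples. Of the 8 genes tested this way it was the only one, and chance flags about 1 group in 20.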

How the results depend on the processing

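Bmp4, Smad1, Id2 and Id3 kept direction and call in mutants against WT under all 15 alternatives run for each. Of 645 alternative values over all results, 596 (92.4%) kept direction and side of the threshold or their count. The 6 called genes of mutants against WT became 1 with a 2-fold change also required and were 5 to 6 when a library was left out; Mut18 gave 3 with DESeq2, 3 at adjusted p under 0.01, 0 at 2-fold and 4 to 5 leaving out a library, and Mut43 gave 4 with DESeq2, 1 at 2-fold and 4 to 6. Past 2-fold, the shares of all tested genes called in edgeR were 8.93% for both mutants, 7.52% for Mut18 and 10.3% for Mut43. The shares called with DESeq2 or at adjusted p under 0.01 were not counted. Leaving out a library, log2 fold changes of mutants against WT ranged from -0.19 to -0.088 for Bmpr1a, -0.28 to -0.14 for Id1 and -0.036 to 0.29 for Smad6. Mut18 against WT ranged from -0.27 to 0.66 for Smad6, which passed (adjusted p = 0.0452, edgeR) without Mut18 replicate 2. Mut43 against Mut18 ranged from -0.023 to 0.077 for Bmpr1a, -0.10 to 0.16 for Smad1 and -0.59 to 0.34 for Smad6. Called ligands were 1 with DESeq2, 0 with a minimum count of 50 (fewer genes tested) and 1 to 3 leaving out a library; receptors 2 to 6; extracellular inhibitors 4 with DESeq2, 4 with a minimum count of 50 and 4 to 8. The order of levels in the mutants had a rank correlation of 0.905 with that in WT over the 8 genes. Regions in all libraries were 22 within 10 kb and 90 within 100 kb; WT-only ones were 4 within 100 kb, 1 with equal peak numbers and 2 to 11 leaving out a library (5 without WT replicate 1, 11 without WT replicate 2); mutant-only ones 0 to 1. Why these values moved was not tested, other than by fewer genes or libraries. With the replicate number as a block 6 genes stayed called and the Id2 fold change was -1.03; Mut43 against WT gave 5, Bmpr1a being lost (adjusted p = 0.0531, edgeR). Same-numbered libraries did not deviate together (correlations -0.012, 0.024 and 0.001), so the numbers do not pair them. About 50 counts limit Smad6, with a counting error of 14.1% in WT.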

Other observations

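The genes whose counts followed those of the Id genes and Bmp4 most closely were sought over the 6 mRNA-seq libraries, among the 11076 genes that averaged 50 or more normalized counts, by Pearson's r of log2 values. Most of such an r reflects the difference between WT and mutants that many genes share, so it is a description. Id2 was followed by H2-D1, a histocompatibility gene (r = 0.999), by Sulf1, a heparan sulfate sulfatase, and by Gpc4, a glypican; Sulf1 had 2057 and 2021 normalized counts in WT and 901 to 1178 in the mutants, and Gpc4 had 517 and 559 in WT and 221 to 299 in the mutants. Glypicans carry heparan sulfate chains, which bind BMPs and other growth factors, and Sulf1 removes sulfate groups from such chains. Genes close to Id3 included App and Nes, and Id1 was followed by Ntmt1, Rnf123 and Fam118b. Bmp4 was followed by Prmt7, an arginine methyltransferase (r = 0.9997), Ddx56 and Galnt6; Galnt6 had 60.5 and 51.9 normalized counts in WT and 134 to 185 in the mutants.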
